A study of Mus musculus with 3 samples.

Results

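Interferon-responding adipose progenitors are cells of the Dpp4+ Pi16+ stromal progenitor class that carry an unusual number of transcripts of interferon-stimulated genes. They were taken from single-cell RNA-seq of subcutaneous inguinal fat of wild-type C57BL/6J male mice of 8 weeks, in 3 libraries with no treatment and no genotype contrast. The stromal vascular fraction, the non-adipocyte cells released from fat by collagenase, had been sorted for cells without the endothelial protein CD31 and the leukocyte protein CD45. Each of the 3 WT replicates was 1 library of 1 mouse.

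Cells with more than 500 detected genes and under 5% mitochondrial UMIs (unique molecular identifiers, 1 per captured transcript) numbered 34577. A progenitor gate, a sum of Dpp4 and Pi16 of 3 or more UMIs with a sum of Icam1 and Fabp4 of 1 or less, held 19931 of them, which was 57.6%. Within it, 405 cells had a sum of Ifit1, Ifit3, Rsad2 and Isg15 of 10 or more UMIs and are the members described here; they were thus chosen by measured UMIs of these 4 genes. They numbered 120 in mouse 1, 157 in mouse 2 and 128 in mouse 3. The comparators were the 18176 cells of the same gate with a sum of 2 or less, 6748, 2657 and 8771 per mouse, and the cells with a sum of 3 to 9 stayed out of both groups.

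Type I interferons are secreted proteins that cells release when they sense nucleic acids of viruses or of their own damaged compartments. These interferons bind the IFNAR1 and IFNAR2 receptor chains, whose Janus kinases phosphorylate transcription factors of the STAT family. With IRF9 these form a complex that binds the interferon-stimulated response element in the promoters of target genes, while interferon gamma acts mainly through STAT dimers at GAS elements. In adipose tissue, Dpp4+ Pi16+ cells are the interstitial progenitors that give rise to Icam1+ Fabp4+ committed preadipocytes.

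The 4 genes that defined the members encode well-known antiviral proteins. Rsad2 encodes viperin, an enzyme that makes a chain-terminating nucleotide, and Ifit1 and Ifit3 encode proteins that bind foreign RNA. Isg15 encodes a ubiquitin-like protein that is attached to other proteins. Ifit3 and Ifit1 lie on chromosome 19 (GRCm38, 34583531 to 34588731 and 34640871 to 34650009, plus strand), Rsad2 on chromosome 12 (26442746 to 26456452, minus strand) and Isg15 on chromosome 4 (156199424 to 156200818, minus strand). The promoters of all 4 hold GAAA, any 2 bases and GAAA again, the core of the interferon-stimulated response element, on one or the other strand. The 250 bases before each RefSeq start (GRCm38.p6) are printed below 5′ to 3′ on the gene's strand, with this motif or its reverse complement (TTTC, any 2 bases, TTTC) in capitals, because these are the genes by which the cells were chosen.
Rsad2, chr12:26456453-26456702, minus strand: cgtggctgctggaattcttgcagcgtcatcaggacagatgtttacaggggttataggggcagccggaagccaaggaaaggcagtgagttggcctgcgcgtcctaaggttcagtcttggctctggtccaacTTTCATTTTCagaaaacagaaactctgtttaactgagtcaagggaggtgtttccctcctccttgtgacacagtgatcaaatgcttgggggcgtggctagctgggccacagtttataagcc
Ifit1, chr19:34640639-34640888, plus strand: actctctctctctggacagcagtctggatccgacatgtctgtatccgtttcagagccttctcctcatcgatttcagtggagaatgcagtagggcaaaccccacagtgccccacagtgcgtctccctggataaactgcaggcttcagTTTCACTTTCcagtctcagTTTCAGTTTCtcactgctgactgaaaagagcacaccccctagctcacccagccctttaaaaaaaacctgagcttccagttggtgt
Ifit3, chr19:34583279-34583528, plus strand: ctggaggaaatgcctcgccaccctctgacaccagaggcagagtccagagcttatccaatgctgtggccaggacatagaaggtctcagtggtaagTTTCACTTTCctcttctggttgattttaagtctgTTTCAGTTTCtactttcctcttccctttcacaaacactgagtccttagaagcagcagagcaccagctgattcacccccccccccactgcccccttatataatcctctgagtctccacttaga
Isg15, chr4:156200819-156201068, minus strand: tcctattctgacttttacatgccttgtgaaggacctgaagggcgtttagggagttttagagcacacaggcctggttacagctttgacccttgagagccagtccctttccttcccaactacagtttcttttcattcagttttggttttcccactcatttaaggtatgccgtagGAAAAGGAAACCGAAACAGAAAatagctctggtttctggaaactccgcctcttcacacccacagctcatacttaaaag

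Rsad2 held 1 copy, which began 120 bases before the start, Ifit1 and Ifit3 held 2 each, and the Isg15 promoter held 3 overlapping copies, the first of which began 78 bases before its start. Among genes that were not used to choose cells, the stretches around the motif are shown for the Ifit3 copy Ifit3b, the chemokine gene Cxcl10, the membrane tether Bst2 and the GTPase genes Irgm1, Igtp and Gbp5, all of which rose in the members.
Ifit3b, chr19:34607744-34607837, plus strand: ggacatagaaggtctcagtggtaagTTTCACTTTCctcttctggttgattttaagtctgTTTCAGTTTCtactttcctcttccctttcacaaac
Cxcl10, chr5:92349068-92349127, minus strand: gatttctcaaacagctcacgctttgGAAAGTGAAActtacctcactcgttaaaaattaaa
Bst2, chr8:71537562-71537627, minus strand: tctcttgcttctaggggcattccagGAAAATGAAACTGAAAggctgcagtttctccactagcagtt
Irgm1, chr11:48871421-48871475, minus strand: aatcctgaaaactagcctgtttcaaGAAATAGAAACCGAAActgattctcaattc
Igtp, chr11:58199497-58199555, plus strand: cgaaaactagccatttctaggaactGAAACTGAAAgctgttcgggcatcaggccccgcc
Gbp5, chr3:142496744-142496803, plus strand: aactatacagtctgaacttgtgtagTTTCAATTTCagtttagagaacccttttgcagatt

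Over all genes with a RefSeq promoter window of 300 bases, 3.99% of 27025 held the GAAA motif on either strand. Of the 303 genes with a window that were higher in the members at an adjusted p under 0.05 (edgeR), 62 held it, or 20.5%. Among the 54 that were at least 4-fold higher, 25 held it, or 46.3%. Of the 9232 genes that were tested and not called the share was 3.11%, and of the 78 genes called lower, 1 held it, or 1.28%. The GAS-like letters TTC, any 3 bases and GAA, which read the same on both strands, were in 10.2% of the higher genes, 8.08% of the genes not called and 9.55% of all genes. They were in 7 of the 54 genes at least 4-fold higher, or 13%, and in 17 of the 83 genes of the interferon-response lists with a window, or 20.5%, where the GAAA motif was in 39, or 47%. Both motifs can lie in 1 promoter, as they did in 0.454% of all 32851 windows and in those of Igtp, Gbp5 and Bst2. The windows of Cmpk2, Oasl1, Irf7, Cxcl9 and Ifi47 held neither motif, which says only that these letters were not in those 300 bases.

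**Figure D1:**
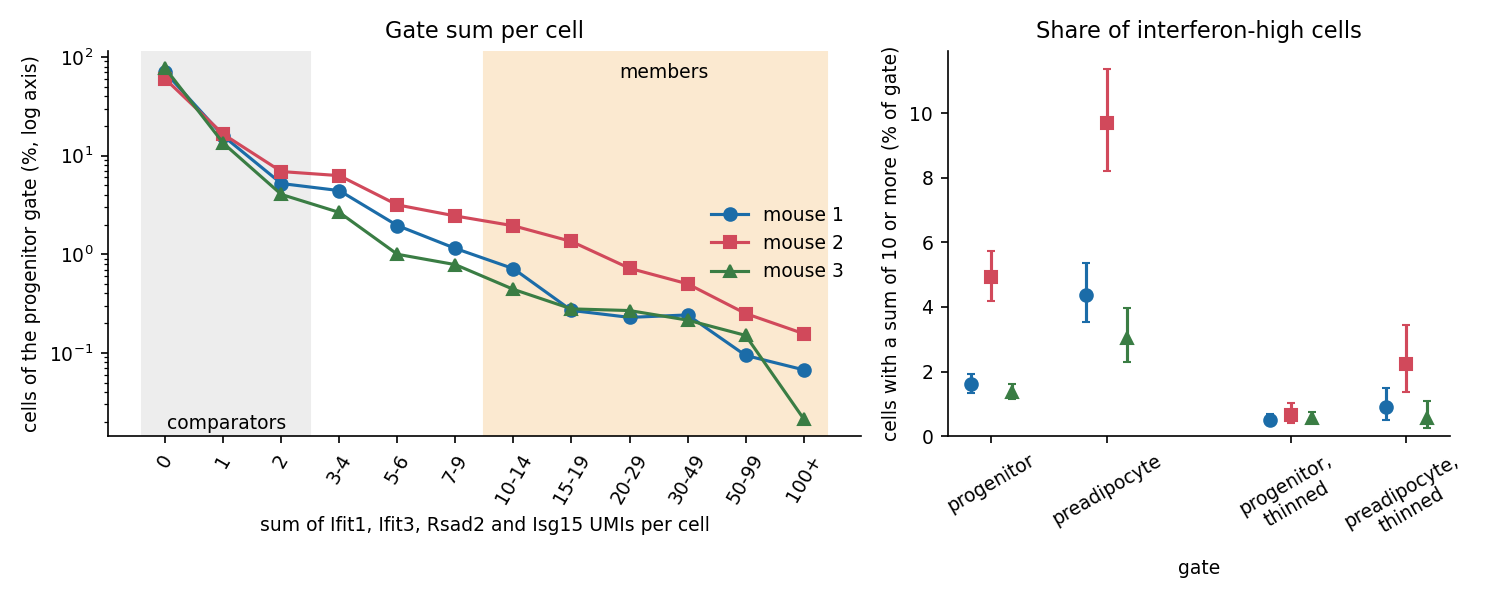
Left, cells of the progenitor gate (percent, log axis) by the sum of the 4 interferon genes per cell, 1 line per mouse, with the sums that define comparators and members shaded. Right, the percent of cells of each gate with a sum of 10 or more in each mouse, with exact 95% intervals, with all UMIs and after each cell was thinned to 3000 UMIs. In the progenitor gate the 4.92% of mouse 2 fell to 0.673% after thinning, still the highest, beside 0.499% and 0.565% in the other mice. Its interval, 0.417 to 1.03, overlapped theirs, which does not show equal shares. In the preadipocyte gate mouse 2 stayed the highest as well.

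The members were the upper tail of the gate sum. In each mouse the number of cells fell as the sum rose from 0 to 9, with no gap between the members and the cells below the threshold. Their gate sum had a median of 17 UMIs, quartiles of 12 and 28 and a highest value of 177. Of the 405 members, 393 carried Isg15, 340 Ifit1, 281 Ifit3 and 226 Rsad2, 162 carried all 4 genes, and 33 passed on Isg15 alone. Just inside the threshold, 26, 27 and 24 cells per mouse had a sum of 10 or 11, and just outside it 49, 49 and 38 cells had a sum of 8 or 9. The cells on both sides of the threshold, inside first, had median UMIs of 8474 and 8336 in mouse 1, 13515 and 14475 in mouse 2 and 7128 and 7628 in mouse 3.

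The levels of the gate genes describe the choice of cells and were not tested. In CPM, the UMIs of a gene summed over cells and scaled to a total of 1000000 UMIs, Isg15 was at 932, 832 and 887 in the members of mice 1, 2 and 3 and at 20.1, 18 and 18.2 in the comparators. Rsad2 was at 521 (mouse 1), 129 (mouse 2) and 743 (mouse 3) in members and at 2.64, 1.70 and 3.38 in comparators. Mouse 2, whose cells were the deepest, was the lowest of the 3 in each of the 4 genes. Of the progenitor genes of the gate, Dpp4 was at 899, 494 and 881 CPM in members and 925, 450 and 933 CPM in comparators, with no common direction. Pi16 was at 2964, 3763 and 2605 CPM in members and 3256, 4523 and 3382 CPM in comparators, lower in each mouse.

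Members made up 1.62% of the progenitor gate in mouse 1 (exact 95% interval 1.34 to 1.93), 4.92% in mouse 2 (4.19 to 5.72) and 1.37% in mouse 3 (1.15 to 1.63), a mean of 2.64% ± 1.98 (SD, n = 3). Mouse 2 also had the deepest cells, with a median of 12193 UMIs per kept cell against 7393 and 6667. After each of the 31170 cells that were deep enough was thinned to 3000 UMIs and gated anew, the shares were 0.499%, 0.673% and 0.565%, a mean of 0.579% ± 0.088 (SD, n = 3) and the exact intervals of the 3 mice overlapped. Gating after thinning left 104 members, 34, 21 and 49 in mice 1, 2 and 3. Calls made in that setting thus rest on fewer cells and UMIs. With all UMIs, the 405 members were within each mouse also deeper than the comparators. Median UMIs were 8702 in members against 7250, 13877 against 11779 and 7546 against 6637. Their median mitochondrial share was 0.864%, 1.79% and 1.33%, below the 1.32%, 2.0% and 1.49% of the comparators.

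Cells with a sum of 10 or more also occurred in the preadipocyte gate (Icam1 and Fabp4 sum of 3 or more, Dpp4 and Pi16 sum of 1 or less), where there were 281. They made up 4.37%, 9.70% and 3.06% of that gate, a mean of 5.71% ± 3.52 (SD, n = 3). The share was higher than in the progenitor gate in 3 of 3 mice, by a mean of 3.07 percentage points, with a two-sided exact permutation p of 0.25, the smallest that 3 mice allow. After thinning, the shares of the preadipocyte gate were 0.907%, 2.24% and 0.558%, with mouse 2 still the highest. The difference was then 0.656 percentage points, it was positive in 2 of 3 mice, and the exact permutation p was 0.5. The intervals cover the sampling of cells within 1 mouse only, and the share of cells with a given sum depends on depth.

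Markers of other cell types were counted in the members. None of the members of mice 1 and 3 and 4 of the 157 in mouse 2 had a UMI of Ptprc, Lyz2, Tyrobp, Pecam1, Cdh5 or Rgs5. That was 2.55% of the members of mouse 2, beside 0.948%, 1.28% and 0.741% of the comparators of mice 1, 2 and 3. The 12 macrophage markers summed to 8.25, 27.6 and 17.4 CPM in the members against 15.8, 24.1 and 16.4 CPM in the comparators, and Ptprc, Adgre1, C1qb, Fcgr3, Tyrobp and Fcer1g were at 0 in the members. Of the 11 lymphocyte and plasmacytoid dendritic cell markers, 9 were at 0 and Bst2, itself an interferon-stimulated gene, made up nearly the whole sum. Barcodes kept in more than 1 library included 4 of the 405 members, and without such cells 381 genes were higher and 98 lower.

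Most genes of the interferon response were higher in the members than in the comparators. Of 12450 genes tested on sums per mouse, 392 rose (3.15%) and 108 fell (0.867%) at an adjusted p under 0.05, 4.02% in all, while the median log2 fold change over all genes was -0.01. Of the 392, 164 were at least 2-fold higher and 80 at least 4-fold. The 8 lists of the interferon response together had 106 genes tested, of which 89 rose, 1 fell and 16 were not called, with a median log2 fold change of 1.69. Without 2 genes that passed the low-count filter only through the members, 87 of 104 rose, with a median of 1.66. The gate genes belong to the same response, so that the rise of these lists is not independent of how the cells were chosen.

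These calls came from edgeR's quasi-likelihood test with mouse as a block, adjusted by Benjamini-Hochberg over all genes tested. The split of 78.4% higher among the calls was 67.5% with library size scaling (341 up, 164 down) and 91.1% with DESeq2 (277 up, 27 down). Without the block 120 genes were higher and 0 lower, with 213 lower at an unadjusted p under 0.05, and without mouse 3 the counts were 229 and 59. The count over the 8 interferon lists was 67 without the block and between 74 and 92 under the other alternatives.

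**Figure D2:**
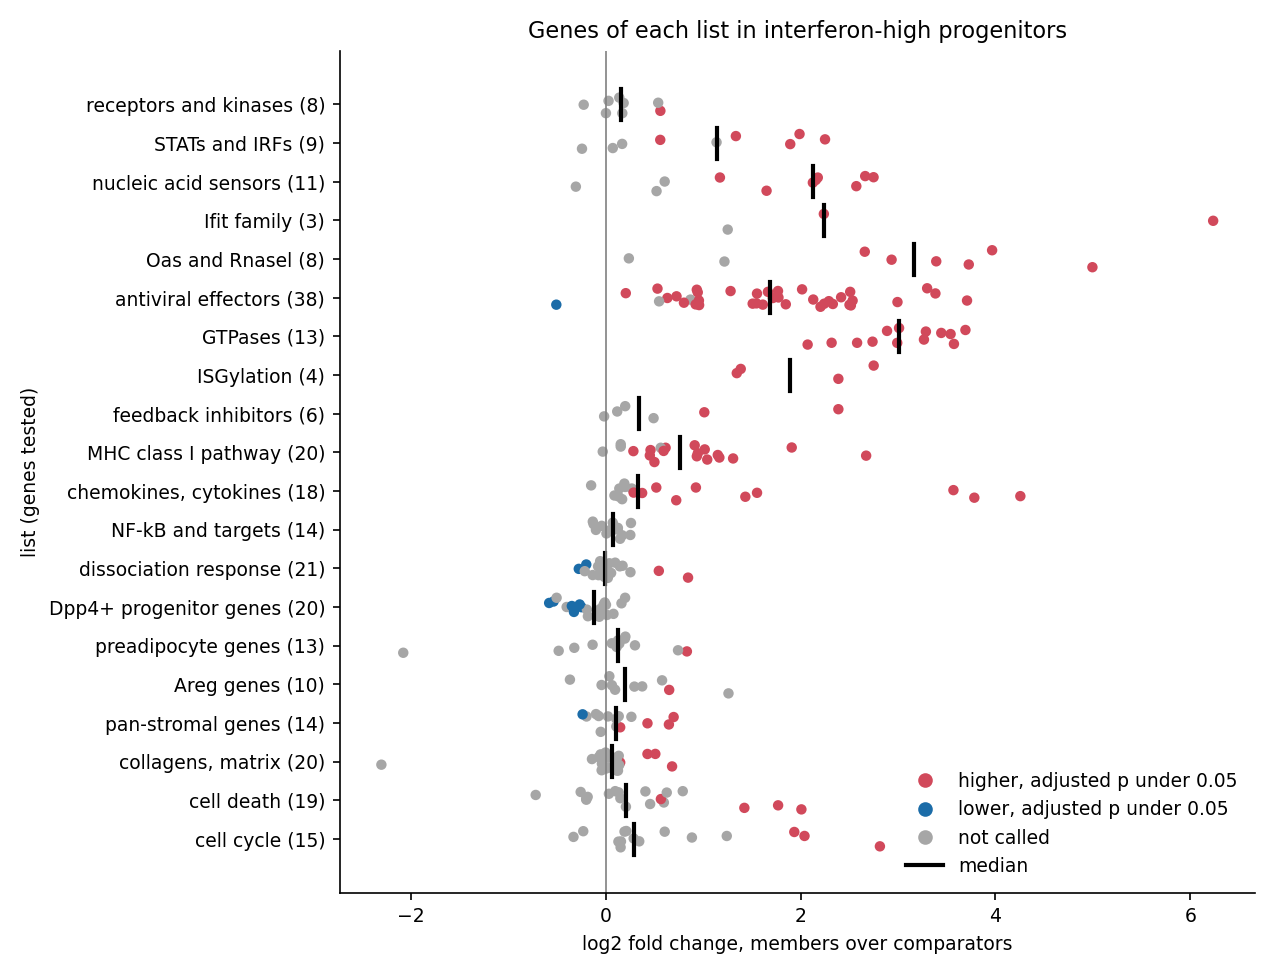
Log2 fold change of members over comparators (x axis) for each tested gene of 20 gene lists (rows, with the number of genes tested), coloured by call, with the list median as a black bar. Most genes of the interferon-response lists lie to the right of 0, up to 6.23 for Ifit3b, while the NF-kB list is centred at 0.07 and the Dpp4+ progenitor list at -0.13.

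The interferon genes themselves were at the limit of detection. Of 11 interferon genes listed, only Ifnb1, which encodes interferon beta, was tested. Its comparators were under 0.598 CPM in each mouse, so it entered the test only through the members, and it was not called, with 6 UMIs in 3 of the 405 members and 11 UMIs in 10 of the 18176 comparators (log2 fold change 3.97 ± 1.25 (SE), adjusted p = 0.0804). The adjusted p was under the threshold with DESeq2 (0.0293) and with a gate sum of 20 or more (0.0381). Each mouse had 1 member with Ifnb1 UMIs, and 4 of the 6 UMIs came from 1 cell of mouse 2. Ifng, which encodes interferon gamma, had 2 UMIs in 2 of the 405 members and 13 UMIs in 13 of the 18176 comparators.

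Of 8 receptor and Janus kinase genes tested, only Jak2, which encodes a kinase of the interferon gamma receptor, rose. It was at 50.4, 37.4 and 81.3 CPM in the members and 45, 24 and 50.6 CPM in the comparators, higher in each mouse with overlapping groups (log2 fold change 0.56 ± 0.12 (SE), adjusted p = 0.00288). The call was lost without mouse 3 (adjusted p = 0.252), without the block, with the stricter progenitor gate and with cells thinned before gating, and with a gate sum of 5 or more 2 genes of the list were called. The other 7 had log2 fold changes between -0.23 for Ifnar1 and 0.54 for Tyk2 and did not pass.

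Transcription factors of the pathway rose in 5 of 9 tested genes. Irf7, the factor that amplifies type I interferon production, was at 218, 238 and 218 CPM in the members of mice 1, 2 and 3 and at 50.4, 56.6 and 39.1 CPM in the comparators. All 3 members' sums were close to each other and more than 3 times any comparator, a fold of 4.76 (log2 2.25 ± 0.09 (SE), adjusted p = 6.51e-18). Irf7 had UMIs in 314 of the 405 members and in 4199 of the 18176 comparators. Stat2 and Irf9, which encode parts of the type I complex, rose by 1.99 ± 0.13 (SE) and 1.33 ± 0.13 (SE) on the log2 scale. Irf2 rose by 0.56 ± 0.10 (SE) with overlapping groups, and its call was lost without mouse 3 (adjusted p = 0.103). Irf1, a factor of the gamma response, was at 201, 120.2 and 255 CPM against 197, 117 and 205 CPM and was not called (log2 0.17 ± 0.08 (SE), adjusted p = 0.356).

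Sensors of foreign nucleic acid rose in 8 of 11 tested genes, with a list median of 2.13 on the log2 scale. Ifih1, which encodes the RNA sensor MDA5, was at 291, 74.8 and 293 CPM in members and 39.9, 21.6 and 35.7 CPM in comparators (6.33-fold). Its partner Ddx58, the RIG-I gene, was at 132, 62.5 and 158 CPM against 30.9, 19.1 and 27.6 CPM (log2 2.16 ± 0.12 (SE)), and Dhx58, the LGP2 gene, rose by 2.75 ± 0.27 (SE). Zbp1, a sensor of Z-form nucleic acid that can start necroptosis, was at 139, 138 and 140.4 CPM in members against 29.7, 37.7 and 26.7 CPM in comparators. No sensor gene had overlapping groups among these 4.

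Ifit3b had the largest log2 fold change in these lists, at 134, 26.8 and 113 CPM in members and 1.31, 1.22 and 0.901 CPM in comparators (log2 6.23 ± 0.30 (SE), adjusted p = 1.13e-15). Ifit3b is a near copy of the gate gene Ifit3 and shares its promoter motif, and reads of such copies may be assigned to either gene, so its rise is not separate from the gate. Ifit2 was at 110.0, 34.4 and 132 CPM against 23.9, 12.6 and 19 CPM (log2 2.24 ± 0.16 (SE)).

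Cmpk2, a mitochondrial nucleotide kinase that lies head to head with Rsad2 on chromosome 12 (26469204 to 26479837, plus strand), was at 115, 38.2 and 152 CPM in members and 8.31, 5.79 and 7.83 CPM in comparators. The lowest member sum, that of mouse 2, was above every comparator (13.1-fold, log2 3.71 ± 0.19 (SE), adjusted p = 2.32e-15). Oasl1, which restrains Irf7 translation, was at 43.1, 14.9 and 50.3 CPM against 1.72, 2.96 and 1.92 CPM (log2 3.97 ± 0.32 (SE)). With Rsad2, Ifit1, Ifit3 and Isg15 these 2 genes complete the markers by which the cells are known, and neither was part of the gate.

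The oligoadenylate synthetases, which make the second messenger that activates RNase L, rose in 6 of 8 tested genes of their list. Of these, Oas3 and Oas1g were under the filter's limit of 0.598 CPM in the comparators of each mouse and entered the test only through the members, and 4 of the other 6 rose. With thinned cells 3 genes of the list were called, and 2 with cells thinned before gating. The call for Oas1g was lost without mouse 3 (log2 3.20, adjusted p = 0.132). Oas3 was at 12.8, 7.65 and 7.75 CPM in members and 0.353, 0.225 and 0.312 CPM in comparators (log2 5.00 ± 0.51 (SE)), and Oasl2 at 264, 147 and 294 CPM against 34, 28.3 and 28.8 CPM (log2 2.93 ± 0.11 (SE)). Of 38 other antiviral effectors, 35 rose and 1 fell. Rtp4, which limits virus replication, was at 127, 120.2 and 146 CPM against 14.3, 15.7 and 10.8 CPM, with no overlap. Bst2, the tetherin gene, was at 629.6, 622 and 499.6 CPM against 187, 225 and 177 CPM, and Ifitm3, which blocks virus entry, at 2549.7, 3302 and 2323 CPM against 1390.1, 1936 and 1161 CPM. Both were well expressed in the comparators and rose less, by 1.61 ± 0.06 (SE) and 0.92 ± 0.05 (SE) on the log2 scale. The exception was Ifi27, at 137, 165 and 150.1 CPM in members and 220.1, 254 and 187 CPM in comparators, which fell by 0.51 ± 0.08 (SE) on the log2 scale (adjusted p = 4.52e-05), a call that was lost without the block.

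**Figure D3:**
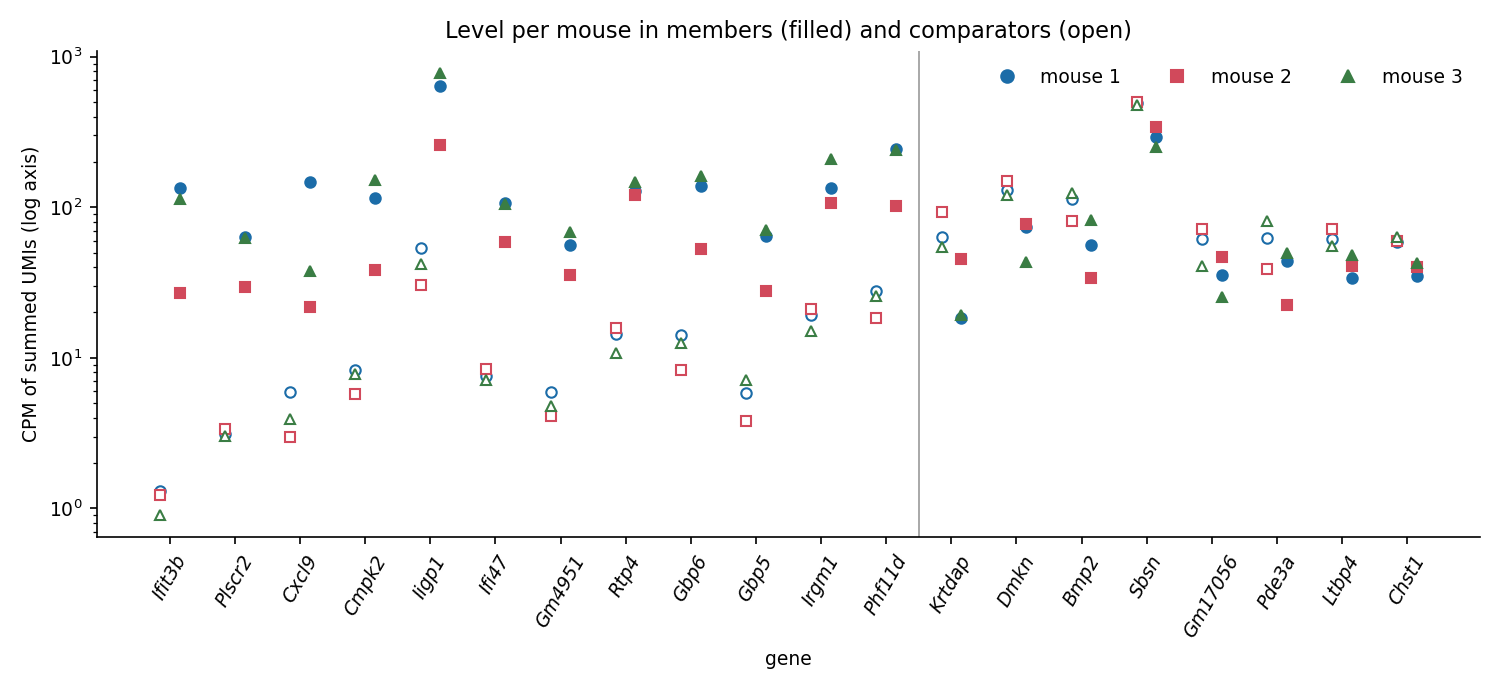
Level of the 12 genes with the largest rises and the 8 with the largest falls (x axis), among called genes with a mean of 50 CPM or more in either group that moved one way in all mice, in CPM (log axis) for each mouse, filled symbols for members and open symbols for comparators. For the 12 rising genes every member value lies above every comparator value; mouse 2, the mouse with the deepest cells, is the lowest of the members in each of the 12.

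All 13 tested genes of the interferon-inducible GTPases, which attack membranes around intracellular pathogens, rose in the members, with a list median of 3.01 on the log2 scale. Iigp1 was at 642, 259.6 and 780.4 CPM in members and 53.4, 30.4 and 41.9 CPM in comparators, a fold of 12.9 (log2 3.69 ± 0.12 (SE), adjusted p = 2.45e-19). Ifi47 was at 106, 59.1 and 106 CPM against 7.52, 8.39 and 7.14 CPM, and Irgm1 at 135, 107 and 209 CPM against 19.1, 21.1 and 15.1 CPM. Of the guanylate-binding proteins, Gbp6 was at 137, 53.1 and 162 CPM against 14.2, 8.36 and 12.5 CPM and Gbp5 at 64.2, 27.6 and 70.7 CPM against 5.80, 3.79 and 7.17 CPM. In each of these 5 genes the lowest member sum, that of mouse 2, was more than 3 times the highest comparator sum. Several of these genes are near copies of each other, so that values of single genes are less certain than that of the list.

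Genes of the ISG15 conjugation pathway all rose, 4 of 4 tested. Herc6, the main mouse ligase of ISG15, was at 102, 51 and 142 CPM against 16, 11 and 15.7 CPM, and the conjugating enzyme gene Ube2l6 rose by 1.34 ± 0.14 (SE) and the activating enzyme gene Uba7 by 1.38 ± 0.18 (SE). Usp18, which removes ISG15 and blocks the type I receptor, was at 184, 125 and 188 CPM against 33.7, 32.7 and 28.8 CPM (log2 2.39 ± 0.11 (SE)). Among 6 inhibitors of interferon signalling tested, Socs1 was the other to rise, at 197, 144 and 129 CPM against 92.9, 86.4 and 57.7 CPM (log2 1.01 ± 0.09 (SE)), a call that was lost without the block.

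The MHC class I pathway rose in 16 of 20 tested genes, with a smaller median of 0.76. Without the block 6 were called, and 8 with cells thinned before gating. Tap1, a chain of the peptide transporter, was at 80.7, 46.3 and 72.6 CPM against 19.1, 17.7 and 15.6 CPM (log2 1.91 ± 0.14 (SE)), and the immunoproteasome gene Psmb8 at 182, 163 and 194 CPM against 80.1, 93 and 70.9 CPM (log2 1.17 ± 0.09 (SE)). B2m, the light chain of class I, was at 1213, 1632 and 1079.5 CPM in members and 857, 1184 and 816 CPM in comparators, higher in each mouse though the groups overlapped (log2 0.50 ± 0.05 (SE)). Nlrc5, which drives transcription of the class I genes, was at 11.9, 2.55 and 11.6 CPM against 1.48, 1.09 and 1.14 CPM (log2 2.67 ± 0.46 (SE)), a call lost without mouse 3 (adjusted p = 0.0572). Of 5 tested genes known for induction by interferon gamma more than by type I interferon, 1 rose, the chemokine gene Cxcl9, a call that was lost with cells thinned before gating.

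Some genes that rose were neighbours in the genome. In 11 stretches at least 4 higher genes lay within 250000 bases of the next (GRCm38), 52 of the 392 in all, and genes that were tested and not called lay between some of them. In 1 stretch of the MHC on chromosome 17, 6 of 23 tested genes were higher, and in 1 on chromosome 2, 4 of 12. Whether such stretches are more frequent than chance gives was not tested. One, on chromosome 1, held 8 genes of the Ifi200 family. Others held the Schlafen genes Slfn5, Slfn9, Slfn8 and Slfn2 on chromosome 11, the Gbp genes on chromosome 3, the Oas genes on chromosome 5, the Trim genes on chromosome 7 and 3 stretches of the MHC on chromosome 17.

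Chemokine and cytokine genes were divided, with 10 of 18 tested higher and none lower. Without Tnfsf10, which entered the test only through the members, 9 of 17 rose, with a median log2 fold change of 0.28. Without the block 4 were higher, with cells thinned before gating 3 were higher and 1 lower, and with the stricter progenitor gate 1 was lower. Cxcl10, a ligand of the T cell receptor CXCR3, was at 1018, 766 and 1195 CPM in members and 347, 324 and 357 CPM in comparators, well apart in every mouse (log2 1.55 ± 0.07 (SE), adjusted p = 9.25e-17). It had UMIs in 270 of the 405 members and in 7743 of the 18176 comparators. Il6 was at 181, 482 and 509 CPM against 154, 281 and 272 CPM (log2 0.72 ± 0.08 (SE)) and Ccl7, a monocyte chemokine, at 1043, 1679 and 2169.7 CPM against 857, 1122 and 1483 CPM (log2 0.52 ± 0.05 (SE)), with overlapping groups. Ccl2, a related monocyte chemokine, was at 1380.2, 2551 and 4441 CPM against 1617, 2178 and 3257 CPM and was not called (adjusted p = 0.135).

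Some of these calls rested on very few cells. Cxcl9, another CXCR3 ligand, was at 148, 21.7 and 37.8 CPM in members and 5.90, 2.96 and 3.93 CPM in comparators (log2 3.78 ± 0.25 (SE)), but 138 of its 251 UMIs in members were in 1 cell and 36 members carried any. Cxcl5, called with a log2 fold change of 3.57 ± 0.49 (SE), had its 43 UMIs in 2 members. Tnfsf10, which encodes the death ligand TRAIL, had 19 UMIs in 16 members and 35 UMIs in 34 of the 18176 comparators (log2 4.26 ± 0.69 (SE)).

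Of 14 NF-kB subunits and target genes tested, none was called by edgeR or DESeq2, and their log2 fold changes lay between -0.13 and 0.26. Of the 14, 3 had an unadjusted p under 0.05 in edgeR, beside 929 higher and 621 lower genes of all 12450 tested. With a gate sum of 5 or more, and likewise without mouse 1, 2 NF-kB genes were called higher. With comparators matched on UMIs and without possible doublets 1 was. Of 21 genes known to follow tissue dissociation, 2 rose and 2 fell. Nr4a2 and Nr4a3, immediate early nuclear receptors, were higher by 0.84 ± 0.11 (SE) and 0.54 ± 0.07 (SE) on the log2 scale, and Fos and Ier2 fell by 0.20 ± 0.05 (SE) and 0.28 ± 0.06 (SE). The call for Fos was lost without mouse 3 (adjusted p = 0.178) and that for Ier2 without mouse 2 (adjusted p = 0.112). With DESeq2 none of the list was called lower, and without the block none was called in either direction. With cells thinned before gating none was called higher and 1 was called lower.

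Some genes of the Dpp4+ progenitor class were called lower in the members, by a count that changed with the mice and the processing. Of 20 genes known for Dpp4+ interstitial progenitors, 6 fell, beside 0.867% of all genes tested, none rose and the median log2 fold change was -0.13. Uchl1, a deubiquitinase of these progenitors, was at 59.6, 58.6 and 75.5 CPM in members and 88.4, 104 and 98.5 CPM in comparators, with no overlap (log2 fell by 0.58 ± 0.10 (SE), adjusted p = 0.00025). Stmn4, a regulator of microtubules, was at 91.6, 60.8 and 92 CPM against 116, 102 and 140.4 CPM. Efhd1, Limch1, Ebf2 and Sema3c fell by 0.25 to 0.35 on the log2 scale, and these 4 calls were lost without mouse 1 (adjusted p = 0.154, 0.248, 0.0906 and 0.0983). Those for Limch1 and Ebf2 were also lost without mouse 2 (adjusted p = 0.067 and 0.101), and that for Limch1 without mouse 3 (adjusted p = 0.0524). Cd248, a surface protein of the class, was at 991, 937 and 867 CPM against 1055, 964 and 984 CPM and was not called. Of the 20 genes, 2 were called lower without mouse 1, 2 with DESeq2, 0 without the block, 3 with cells thinned to 3000 UMIs, 2 with comparators matched on UMIs and 1 with cells thinned before gating. With a gate sum of 5 or more 2 were called higher.

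Of 13 preadipocyte genes tested 1 rose, Apoe, a lipoprotein component, at 33.9, 56.1 and 117 CPM against 36.2, 24.2 and 64.5 CPM with overlapping groups, and its sign turned when cells were gated after thinning (log2 -1.52, adjusted p = 0.294). Its call was lost without mouse 3 (adjusted p = 0.137), and none of the list was called without the block, with thinned cells or with the stricter progenitor gate. Of 10 genes of adipogenesis-regulatory cells, 1 rose, Fmo2 (log2 0.65 ± 0.18 (SE)), a call that was lost without mouse 1 (adjusted p = 0.105) and without mouse 2 (adjusted p = 0.659). It was also lost with DESeq2, without the block, with thinned cells, with cells thinned before gating, with comparators matched on UMIs, with a gate sum of 20 or more, with comparators of a sum of 0 and without shared barcodes. Among 14 genes shared by stromal progenitors 4 rose and 1 fell, and the higher genes were 2 without mouse 3, 2 with cells thinned before gating and 0 without the block. The lower genes were 0 under the last pair of settings, and 2 without mouse 1 and 2 with a gate sum of 5 or more. Ly6a, which encodes the stem cell antigen Sca-1, was at 4302, 5213 and 3926 CPM in members and 2733, 3505 and 2608 CPM in comparators, with no overlap (log2 0.65 ± 0.04 (SE), adjusted p = 2.79e-13), and Pdgfrb, a growth factor receptor, at 118, 71.8 and 134 CPM against 64.2, 62.9 and 68.7 CPM (log2 0.70 ± 0.11 (SE)), a call lost without mouse 3 (adjusted p = 0.0837).

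Among the lower genes were Krtdap, Dmkn and Sbsn, 3 neighbouring genes on chromosome 7 (GRCm38, 30751471 to 30791097, plus strand) that encode secreted proteins best known from skin. Krtdap was at 18.3, 45 and 19.4 CPM in members and 63.6, 92.3 and 54.6 CPM in comparators, lower in each mouse and without overlap (log2 fell by 1.24 ± 0.13 (SE), adjusted p = 4.08e-08), with UMIs in 47 of 405 members and 2966 of 18176 comparators. Dmkn was at 74.2, 77.3 and 43.6 CPM against 129, 149 and 121 CPM (fell by 0.98 ± 0.10 (SE)) and Sbsn at 293, 343 and 253 CPM against 495, 500.5 and 475 CPM (fell by 0.68 ± 0.07 (SE)).

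Bmp2, which encodes a bone morphogenetic protein, was at 55.9, 34 and 82.3 CPM against 113, 80.8 and 125 CPM, lower in each mouse with overlapping groups (fell by 0.91 ± 0.11 (SE)). Bmp6, a gene of the same family that was picked after its values were seen, was at 4.58, 3.40 and 1.94 CPM against 9.73, 12.5 and 9.37 CPM, and its call was lost without mouse 2 (adjusted p = 0.0617). Pde3a, which degrades cyclic nucleotides, Ltbp4, a binding protein of latent TGF-beta, the sulfotransferase gene Chst1 and the unnamed gene Gm17056 fell by 0.64 ± 0.12 (SE), 0.61 ± 0.12 (SE), 0.59 ± 0.11 (SE) and 0.64 ± 0.12 (SE) on the log2 scale. The number of lower genes changed with the processing and was 27 with DESeq2 and 43 with comparators matched on UMIs.

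Of 19 cell death genes, 4 rose, Daxx, Pml, Mlkl and Casp4, and 2 were called without the block and 2 with cells thinned before gating. Daxx and Pml, which encode proteins of nuclear bodies, were at 66, 27.6 and 57.1 CPM and 72.4, 32.7 and 51.3 CPM in members against 13.9, 11.2 and 11.1 CPM and 16.9, 14.2 and 13.5 CPM in comparators. Mlkl, the executor of necroptosis, was at 24.7, 5.95 and 25.2 CPM against 6.77, 5.56 and 6.48 CPM, and the members of mouse 2 lay within the range of the comparators. Its call was lost without mouse 3 (adjusted p = 0.222). Of 15 proliferation genes, 3 were called higher, and these calls rested on few cells of mice 1 and 2. Mki67 had 42 UMIs in 2 members, Cdk1 35 in 5 and Top2a 66 in 9. In mouse 3 all 3 genes went the other way, with Mki67 and Cdk1 at 0 in the members. None of the list was called higher without the block, with thinned cells, with cells thinned before gating, with the stricter progenitor gate or without possible doublets. Without mouse 1 the call for Mki67 was lost (adjusted p = 0.707), and without possible doublets the log2 fold change of Top2a was -0.75 (adjusted p = 0.812).

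Kdr, a vascular growth factor receptor, was the 1 endothelial marker tested and rose (log2 2.00 ± 0.31 (SE)), at 31.2, 3.40 and 6.78 CPM against 6.40, 1.22 and 2.11 CPM, with 49 UMIs in 33 members. Of the 10 endothelial markers listed, 6 were at 0 in the members, Cdh5, Tie1, Emcn, Vwf, Egfl7 and Esam. The 10 markers, Kdr included, summed to 32.1, 6.37 and 7.75 CPM in members and 7.92, 2.67 and 2.96 CPM in comparators. The call for Kdr was lost without mouse 1 (adjusted p = 0.0855), without the block and with cells thinned before gating. Kcnj8, a channel of pericytes, was higher (log2 1.21 ± 0.30 (SE), 43 UMIs in 27 members), while the pericyte marker Rgs5 was at 0, the 10 mural markers summed to 31.2, 37.4 and 52.3 CPM against 28.3, 24.8 and 36.8 CPM, and Kcnj8 changed sign when cells were gated after thinning (log2 -0.72). The call for Kcnj8 was lost with DESeq2 (adjusted p = 0.06), without mouse 2 (adjusted p = 0.069) and without mouse 3 (adjusted p = 0.317), and also without the block, with thinned cells, with the stricter progenitor gate and with a gate sum of 20 or more. The mesothelial gene Krt19 and the haemoglobin gene Hba-a1 were called lower, with 14 and 3 UMIs in the members. The call for Hba-a1 was lost without any 1 of the mice and that for Krt19 without mouse 2 (adjusted p = 0.0526) and without mouse 3 (adjusted p = 0.183), and neither was called with DESeq2, without the block, with thinned cells or with cells thinned before gating. The call for Krt19 was lost as well with comparators matched on UMIs, with the other gate sums and with the stricter progenitor gate, and that for Hba-a1 with comparators of a sum of 0, without possible doublets and without shared barcodes.

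**Figure D4:**
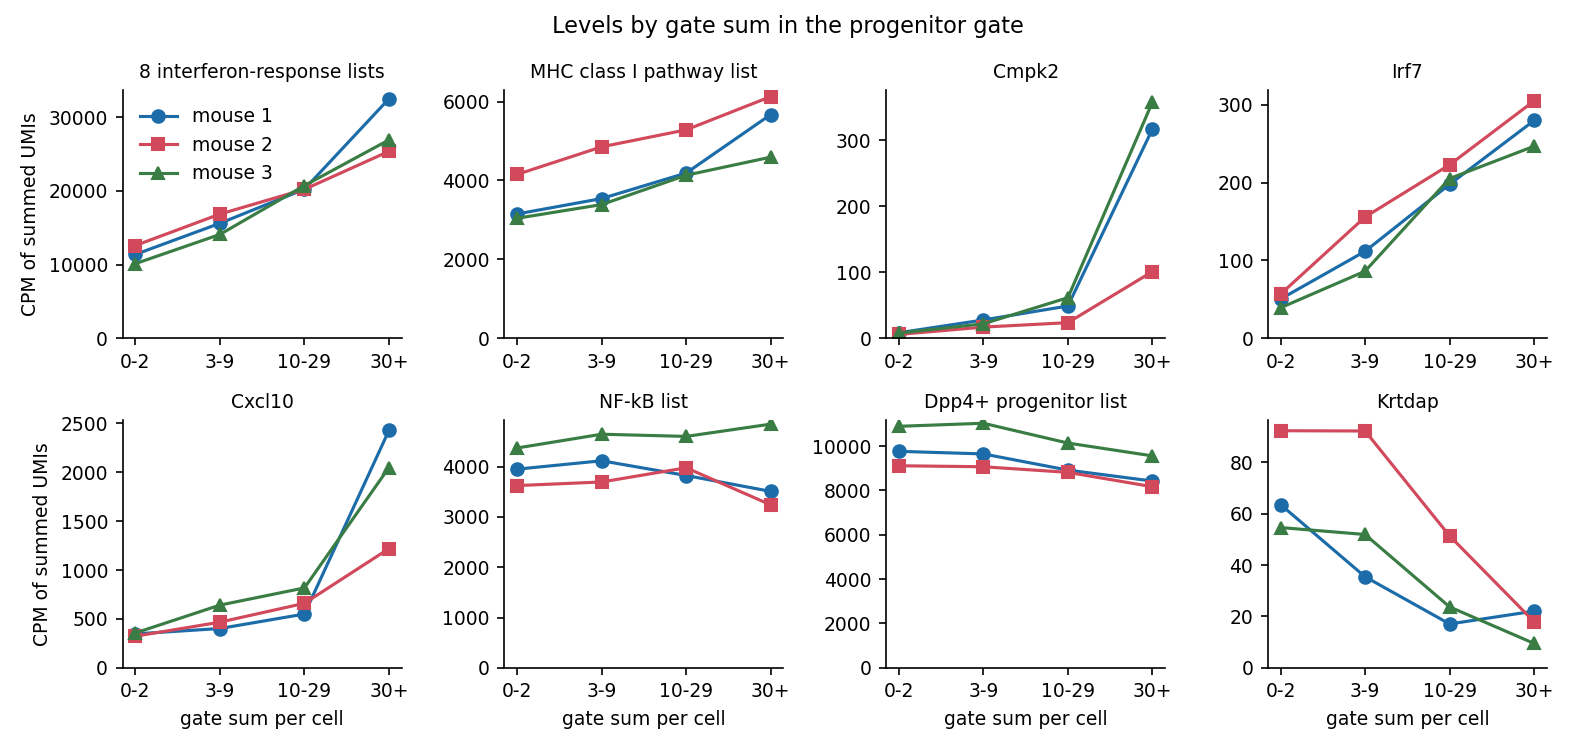
Level in CPM of summed UMIs (y axis, from 0) in cells of the progenitor gate by gate sum (x axis), 1 line per mouse, for list sums and for single genes. The 8 interferon lists and Irf7 rise at each step in every mouse, Cmpk2 and Cxcl10 rise mainly in the cells with a sum of 30 or more, and the NF-kB list has no common direction.

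Levels by gate sum, with the cells between the groups included, are a description without a test, since the tiers were cut from the gate genes. The 8 interferon lists summed to 11356 CPM ± 1230 (SD, n = 3) at a gate sum of 0 to 2, 15505 CPM ± 1384 at 3 to 9, 20378 CPM ± 288 at 10 to 29 and 28255 CPM ± 3749 at 30 or more. Irf7 was at a mean of 48.7, 118, 209 and 277 CPM over the 4 tiers and rose in each mouse at each step. Cmpk2 was at 7.31, 22.1, 44.6 and 258 CPM, and Cxcl10 at 343, 504, 676 and 1899 CPM, both with their largest step at a sum of 30 or more in each mouse. The MHC class I list rose from 3449 to 5464 CPM. Krtdap went from 70.2 CPM to 59.9, 30.7 and 16.5 CPM, and the Dpp4+ progenitor list from 9925 to 8718 CPM, while the NF-kB list was at 3981, 4152, 4134 and 3864 CPM.

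**Figure D5:**
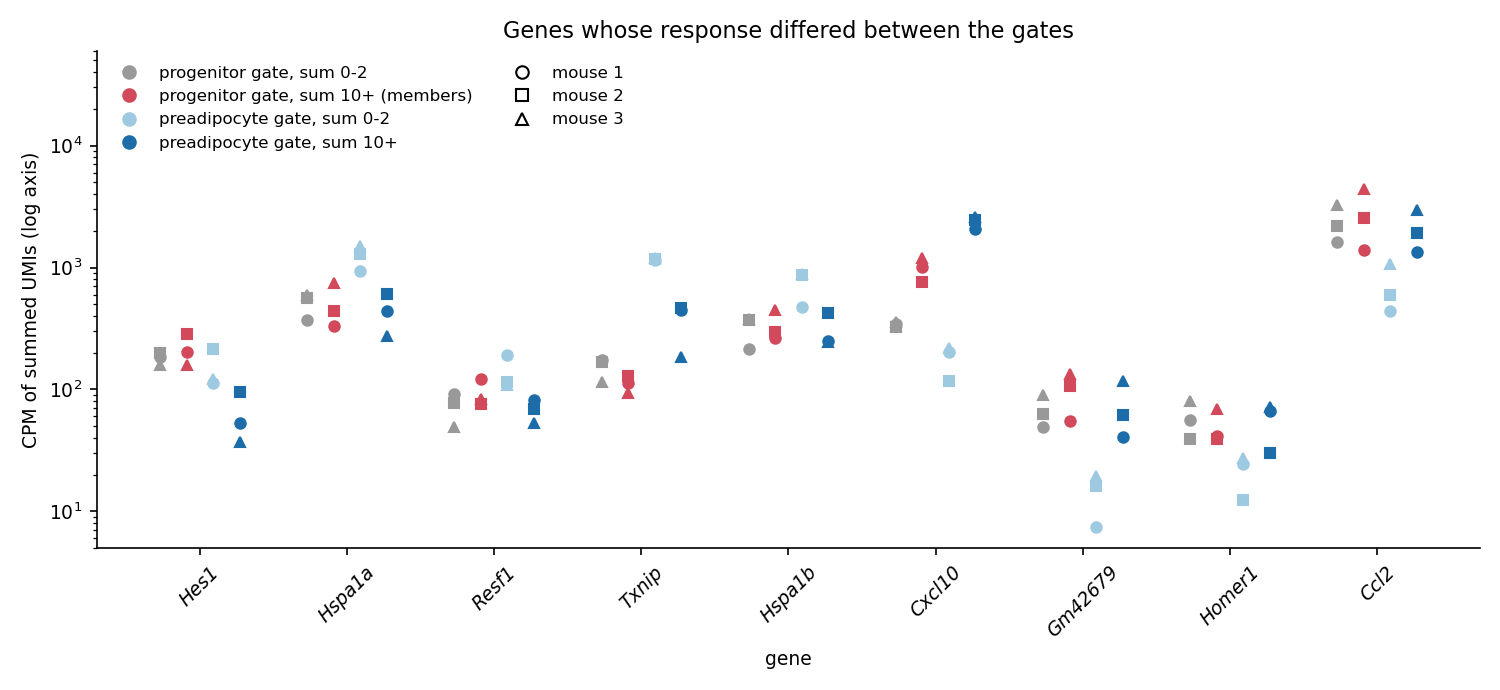
Level in CPM (log axis) per mouse of 9 genes with large tested differences in response between the gates (x axis), for interferon-low and interferon-high cells of the progenitor and the preadipocyte gate; symbols are mice. Cxcl10 is highest in the interferon-high cells of the preadipocyte gate, and Ccl2 and Homer1 differ between interferon-low and interferon-high cells in that gate more than in the progenitor gate.

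To ask where the progenitors differed from interferon-high preadipocytes, the fold change in the progenitor gate was compared with that in the preadipocyte gate in 1 model (edgeR). Of 11990 genes tested, 18 had a more positive (0.15%) and 138 a more negative fold change (1.15%) in the progenitors at an adjusted p under 0.05, 1.3% in all. Of the 109 tested genes of the 8 interferon lists, 1 had a more positive and 4 a more negative fold change in the progenitors, or 4.59%. None was called by edgeR among 11 sensors, 8 genes of the Oas list, 15 GTPases, 4 ISG15 enzymes and 20 genes of the MHC class I pathway. Of these 58, 13 had an unadjusted p under 0.05. Over all 11990 genes, 611 with a more positive and 884 with a more negative fold change did. On simulated data the interaction test recovered 46 of 100 differences of 1 on the log2 scale. The absence of a call therefore does not show an equal response. Of the interferon lists, the 1 gene called more positive belonged to the list of STATs and interferon regulatory factors. The 4 more negative genes were Irf1, Samhd1, Zc3hav1 and Ifi205, with differences of -1.25 ± 0.16 (SE), -1.21 ± 0.18 (SE), -0.78 ± 0.12 (SE) and -0.65 ± 0.12 (SE). Without mouse 2 the calls for Samhd1, Zc3hav1 and Ifi205 were lost (adjusted p = 0.0707, 0.1 and 0.0727), and without mouse 3 that for Ifi205 was (adjusted p = 0.0643).

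Among called genes of at least 50 CPM that moved one way in all mice, Cxcl10 had the largest difference. In the preadipocyte gate it was at 2055, 2477 and 2620.0 CPM in interferon-high cells and 201, 118 and 217 CPM in interferon-low cells. In the progenitor gate it was at 1018, 766 and 1195 CPM and 347, 324 and 357 CPM. The rise in the progenitors was thus smaller by 2.38 on the log2 scale (difference -2.38 ± 0.19 (SE), adjusted p = 5.3e-06). Progenitor comparators started from a higher level, and the members ended below the interferon-high preadipocytes in every mouse.

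Ccl2, the monocyte chemokine, was at 1339.7, 1902 and 2955 CPM in interferon-high and 439.9, 594 and 1069.8 CPM in interferon-low preadipocytes, whereas members and progenitor comparators overlapped (difference -1.53 ± 0.13 (SE)). Homer1, a scaffold protein gene, had a difference of -1.63 ± 0.22 (SE) and the unnamed gene Gm42679 one of -1.83 ± 0.22 (SE). Of the 14 NF-kB genes, 5 had a more negative fold change in the progenitors, Nfkb1, Rela, Nfkbiz, Tnfaip2 and Birc3, with differences from -0.70 to -1.44. Without mouse 2 the calls for Rela and Birc3 were lost (adjusted p = 0.193 for both), as were those for Rela without mouse 3 (adjusted p = 0.0541) and Birc3 without mouse 1 (adjusted p = 0.056). In the members themselves these 5 were not called.

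In the other direction, Txnip, which binds thioredoxin and limits glucose uptake, was at 447, 466 and 184 CPM in interferon-high and 1159.5, 1171 and 1194 CPM in interferon-low preadipocytes. In the progenitors it was at 113, 130.0 and 92.9 CPM in members and 173, 169 and 114 CPM in comparators (difference 1.14 ± 0.23 (SE)). Txnip thus fell in the members too, by 0.39 ± 0.08 (SE) on the log2 scale (edgeR, adjusted p = 0.00388). Hes1, a Notch target, Resf1, a repressor of endogenous retroviruses, and the heat shock genes Hspa1a and Hspa1b had differences of 1.26 ± 0.22 (SE), 1.22 ± 0.19 (SE), 1.23 ± 0.28 (SE) and 1.13 ± 0.21 (SE). For the last pair the members were near the comparators, while the interferon-high preadipocytes were below the interferon-low ones in every mouse. Without mouse 3 the counts were 3 and 43, without mouse 2 they were 16 and 62, and without the replicate block 0 and 1 were called, with 250 and 278 at an unadjusted p under 0.05.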

How the data were processed

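Per the labels and the matrix file headers, the authors counted UMIs per gene and cell barcode with Cell Ranger (version 2.1.1 in the submitters' processing notes, 4.0.0 in the headers) on mm10. The deposited values are raw counts, with 95899433, 79801002 and 100846072 UMIs in 13698, 6872 and 16220 barcodes for mice 1, 2 and 3. Gene positions came from GENCODE (GRCm38) and promoters from RefSeq (GRCm38.p6).

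Cells with over 500 genes and under 5% mitochondrial UMIs were gated, and the counts of each gate were summed per mouse. Sums were tested with edgeR 4.0.16 (R 4.3.3; filterByExpr, TMM, quasi-likelihood F test, mouse as block), with Benjamini-Hochberg adjustment over all genes tested. The response in the progenitor gate against that in the preadipocyte gate was tested as an interaction. The 8 gate genes were left out of the results of the tests. No doublet caller was run; cells above the 95th percentile of UMIs or with a marker of another cell type were left out in one alternative. With mouse as a block, the p-values do not measure the spread between mice, but how far the difference between groups varied among them. The fit of members against comparators left 2 residual degrees of freedom and the interaction 6, so the variance estimates share information across genes. A gene whose mice disagreed could still be called. Mki67, at an edgeR adjusted p of 0.00662, had log2 fold changes of 3.61, 1.08 and -4.02 in mice 1, 2 and 3. Groups shared mouse numbers because both came from the same library; the deviations of members and comparators from their group means correlated with r of 0.724, 0.882 and 0.785 over 2841 genes of at least 50 CPM.

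Named genes were the 12 largest rises and 8 largest falls among called genes that moved one way in all mice and averaged 50 CPM or more in either group, the 3 largest changes and 2 highest levels in each of 27 lists, and the 5 largest interactions each way; not every one is printed, and some genes are not reported here. The members, gates, lists and tests were chosen with earlier results of these data known. DESeq2 1.42.0, library size scaling, no filter, no block, thinning to 3000 UMIs, other gates and leaving out each mouse were tried. The scripts were tested on simulated data. The pairs of libraries shared 37, 59 and 45 kept barcodes. Gene symbols not in the count tables, such as Mx1 and Mx2, were not analysed here.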

Additional observations from a re-analysis of the deposited data

Results flagged for a closer look

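Cells with a gate sum of 10 or more were also found outside both gates, 324 in all, and they enter no comparison above. They made up 2.63%, 8.63% and 1.84% of the 3500, 1819 and 4067 cells in neither gate, with mouse 2 again the highest. With cells thinned before gating these shares were 0.761%, 1.76% and 0.722%, and mouse 2 was still the highest.

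The response to membership differed between the progenitor and the preadipocyte gate for the 9 genes named above (edgeR interaction with mouse as block). The difference of log2 fold changes, progenitor minus preadipocyte, was 1.26 for Hes1, 1.23 for Hspa1a, 1.22 for Resf1, 1.14 for Txnip and 1.13 for Hspa1b. It was -2.38 for Cxcl10, -1.83 for Gm42679, -1.63 for Homer1 and -1.53 for Ccl2. Without mouse 3 the calls for Hes1, Resf1, Hspa1b and Homer1 were lost (adjusted p = 0.094, 0.0706, 0.143 and 0.0575), and without mouse 2 that for Txnip was (adjusted p = 0.0537).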

How the results depend on the processing

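The count of higher genes in the members was 392, and 120 without the replicate block and 237 with cells thinned to 3000 UMIs. It was 152 with cells thinned before gating, which left 104 members, and 229 to 358 with 1 mouse left out. The count of lower genes was 108, and 164 with library size scaling, 27 with DESeq2, 172 without the low-count filter, 0 without the replicate block, 33 with thinned cells, 43 with comparators nearest in UMIs, 32 with cells thinned before gating and 59 to 113 with 1 mouse left out. For the interaction, the more positive genes were 18, and 38 with library size scaling, 132 without the filter, 0 without the block and 3 to 20 with 1 mouse left out. The more negative were 138, and 88, 264 and 1 under the same settings, 66 with thinned cells and 43 to 100 with 1 mouse left out. The member share of 2.64% was 6.13% with a gate sum of 5 or more, 0.972% with 20 or more, 0.579% after thinning and 1.50% to 3.27% with 1 mouse left out. The difference of 3.07 percentage points was 0.656 after thinning and 2.22 to 3.77 with 1 mouse left out. The sign turned for Top2a without possible doublets (-0.75) and for Kcnj8 (-0.72) and Apoe (-1.52) with cells thinned before gating; the cause was not tested. Cxcl9 lost its call there (log2 2.27, adjusted p = 0.22). The median over all genes was -0.15 without the filter, -0.19 with cells thinned before gating and 0.11 for the interaction with library size scaling. Of 1616 values for 97 genes under the alternatives, 1428 kept direction and side of the threshold, 179 lost the call, 6 gained it and 3 reversed. Leaving out shared barcodes, thinning before gating and the interaction with a gate sum of 5 or more were alternatives chosen after seeing the data.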
